A study of Mus musculus with 12 samples.

Results

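Hearts of Trex1-deficient mice that carry both alleles of STING were compared with hearts of mice that carry both alleles of each gene. The comparison used 4 of the 12 arrays of the series, chosen by the genotype label: 2 arrays of genotype Trex-/- STING+/+ (KO 1 and KO 2) and 2 arrays of genotype Trex+/+ STING+/+ (WT 1 and WT 2). All mice were untreated and of mixed C57BL6/129Sv strain, and every array was made from total heart RNA hybridised to an Illumina expression array. The other 8 arrays hold Trex-/- and Trex+/+ hearts, 2 of each, with STING+/- and with STING-/-, and they enter here through the shared estimate of spread and through the comparison of effects at the end. How the Trex1 allele was made, the age and the sex of the mice and whether 1 genotype came from separate litters are not stated in the labels. The title, source and genotype labels of KO 1 and KO 2 give STING+/+, whereas a free-text description attached to the same 2 samples gives Sting -/-. The genotype labels were followed. The Sting1 probe was detected on 8 of the 12 arrays, these 4 among them.

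Trex1 encodes the main cytosolic DNA exonuclease of mammalian cells. When DNA is not cleared from the cytosol, the enzyme cGAS binds it and makes cyclic GMP-AMP, which activates STING (encoded by Sting1) on the endoplasmic reticulum. STING recruits the kinase TBK1, the transcription factor IRF3 is phosphorylated, and type I interferon is made. Interferon acts on its receptor through JAK1 and TYK2 and through transcription factors that bind interferon-stimulated response elements in the promoters of many antiviral genes. Mice without Trex1 are known for an inflammation of the heart muscle, and loss of TREX1 in people causes Aicardi-Goutières syndrome.

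The arrays differed among themselves before any comparison was made. Values are log2 signals after background correction and quantile normalization, and a difference is the mean of the KO arrays minus the mean of the WT arrays. Trex1 probe ILMN_3131766 read 5.60 on KO 1 and 6.76 on KO 2, against 6.89 and 6.53 on the WT arrays. The other detected Trex1 probe, ILMN_2509737, read 7.01 on KO 1 and 7.84 on KO 2, against 7.66 and 7.37 on the WT arrays. KO 1 therefore lay below both WT arrays at both probes, while the array labelled KO 2 lay inside the WT range at 1 probe and above it at the other. On the 4 other Trex-/- arrays of the series the same probes read 5.38 to 5.68 and 6.79 to 7.30, so KO 1 resembled them and KO 2 did not. The sources used here do not place these probes relative to the deleted part of Trex1, and neither probe differed between the genotypes past the threshold (adjusted p = 0.301 and 0.863 over probes). Sting1 read 7.03 and 6.94 in KO hearts, against 5.71 and 5.15 in WT hearts, and the KO arrays lay above both WT arrays.

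Xist, the RNA that silences the X chromosome in female cells, was at the level of an undetected probe on KO 1 (4.47 and 8.93 on KO 1 and KO 2, against 9.60 and 9.24 on the WT arrays). The Y-linked gene Eif2s3y read 10.09 and 4.35 on KO 1 and KO 2, against 4.45 and 4.43 on the WT arrays. KO 1 thus carried the male pattern and the other 3 arrays the female pattern, so the 2 KO samples came from different animals. For WT 1 and WT 2 no label says that they came from separate mice, and whether their spread is technical was not tested. Hbb-b2, a haemoglobin gene, read 10.37 on WT 1 and 4.65 on WT 2, and 25 features had a gap of at least 3 (log2) between these arrays. Across all features the 2 KO arrays correlated at 0.951 and the 2 WT arrays at 0.986. A gap of at least 1 (log2) separated KO 1 from KO 2 at 2254 features and WT 1 from WT 2 at 302 features. A set of liver transcripts was higher on KO 2 than on the other 3 arrays: over the 7 measured of 10 listed, the mean log2 signal was 4.80 on KO 1 and 7.09 on KO 2, against 4.81 and 4.90 on the WT arrays. Of these, the transthyretin gene Ttr read 5.74 on KO 1 and 8.66 on KO 2, against 5.25 and 5.55 on the WT arrays. Mup2, a major urinary protein, read 4.39 and 8.27 on the KO arrays, against 4.50 and 4.51 on the WT arrays, and of these 4 arrays it was above background on KO 2 alone. On STING+/- it read 12.49 and 7.82 in KO hearts, against 4.71 and 10.57 in WT hearts, and on STING-/- 5.25 and 5.13 in KO hearts, against 4.46 and 9.92 in WT hearts, so some arrays of other genotypes were high as well. Hnrnpa2b1, an RNA-binding protein of nearly all cells, read 10.91 and 5.91 in KO hearts, against 11.63 and 11.59 in WT hearts, of these 4 arrays low on KO 2 alone. WT array 1 of STING+/- was also low for Hnrnpa2b1, at 8.47, and the remaining arrays of the other genotypes read 11.32 to 11.62. Because of the Trex1 signal and these departures of the array labelled KO 2, the total count below, and each list's count that moved by over 1.5 times, is also given without it. Their part in the results was not tested.

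**Figure D1:**
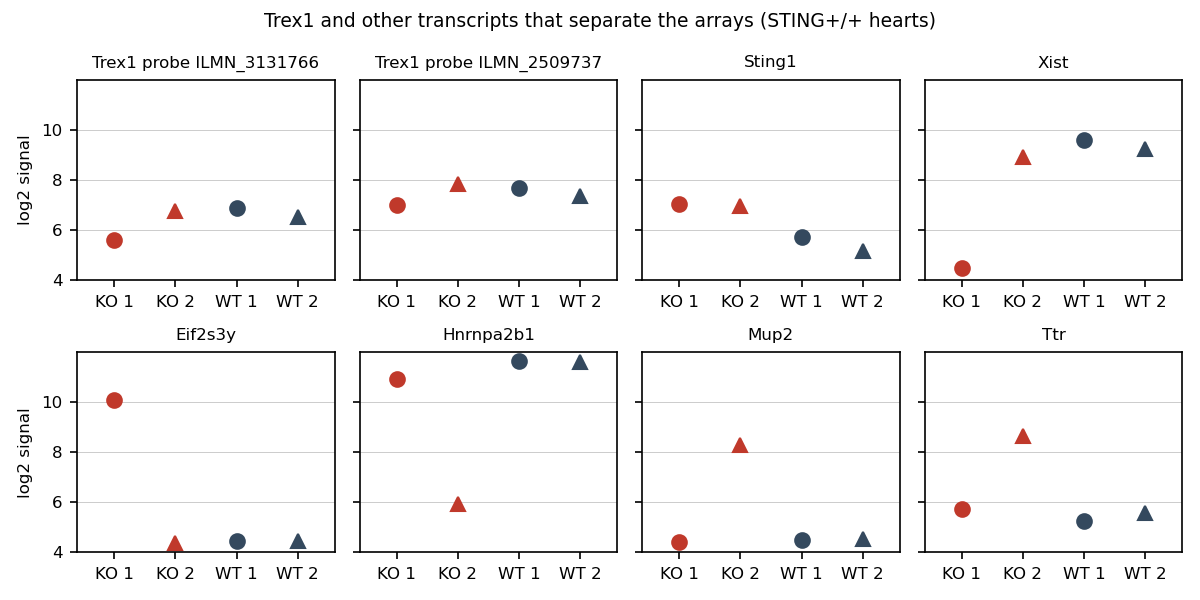
Log2 signal (vertical axis) of 2 Trex1 probes, Sting1, Xist, Eif2s3y, Hnrnpa2b1, Mup2 and Ttr on each of the 4 arrays, with the Trex1 KO arrays in red at the left and the WT arrays in dark blue at the right of each panel. KO 1 stands apart at Xist and Eif2s3y, and KO 2 stands apart at Hnrnpa2b1, Mup2 and Ttr and lies with the WT arrays at both Trex1 probes.

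The tissue label was checked against markers of ventricular muscle. The light chains Myl2 and Myl3 and cardiac actin Actc1 were among the brightest transcripts, with Myl2 at 15.37 on KO 1 and 15.30 on KO 2, against 15.53 and 15.53 on the WT arrays. The atrial transcripts Sln and Bmp10 were not well above background on any of the 4 arrays. Of other tissue markers, 1 of 8 measured on the atrial list rose (Nppa, also a stress gene of the ventricle) and 1 fell (Gpr22), 1 of 8 adipocyte genes fell (Plin5, adjusted p = 0.0837 without KO 2), 1 of 2 lung genes rose (Napsa, 3.44), and no measured erythroid or thymus gene passed. Probes of near-identical relatives, such as the class I, PYHIN, Apol9 and Bcl2a1 genes, may bind one another's RNA, so a value for 1 such gene is uncertain. Loss of Trex1 was set against this background in 1 limma fit over 15561 features, of which 12080 carry 1 gene symbol, and a feature was called where its Benjamini-Hochberg adjusted p was under 0.05. In all, 3378 features (21.7%) passed: 1833 (11.8% of features tested) were higher and 1545 (9.93%) lower in KO hearts. Both KO arrays lay above both WT arrays at 4132 features (26.6%) and below both at 4888 features (31.4%), and all features called were among these. Rises had a median of 1.54 and falls one of -1.13, 626 rises and 137 falls were past a size of 2, and 118 rises and 2 falls were past a size of 4. The median over all features was -0.04. KO 2 lay further from the WT mean than KO 1 at 1223 of the 1833 rises and at 997 of the 1545 falls. Without KO 2, 2707 features passed, of which 2211 were among the 3378, in the same direction. Without KO 1, 5168 passed, of which 2981 were among them. With KO 2 left out, the lone KO array was assumed to vary like the other groups. A fit of the 4 arrays alone called 1418 features, and many of the list counts below were then lower. Falls were then 4 of 14 for resting fibroblasts, 1 of 13 for pericytes and smooth muscle, 1 of 19 for the sarcomere and 1 of 17 for cardiac transcription factors. Rises were 4 of 12 for the integrated stress response and 3 of 6 for the TRIM list. Other lists kept their counts, such as all 7 of the IFIT, viperin and Ifi44 list. Beside named genes, the loss of the call is stated where leaving out 1 KO array ended it, but not where only leaving out 1 WT array did. Rises of the latter kind were Acta1, Aim2, Asns, Cd79b, Cdkn1a, Ctla4, Cx3cr1 and Il18. Falls of that kind were Acaa2, Cd163, Esrra, Gata6, Lifr, Myh6, Pdgfra, Pdhb, Ppargc1b, Retnla, Rgs5, Sirt5 and Sod2. A total of 966 features were called in the same direction under every alternative, the loss of each of the 4 arrays included. Because whole hearts were measured, fewer cells of a type and less RNA per cell cannot be told apart in any result below.

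**Figure D2:**
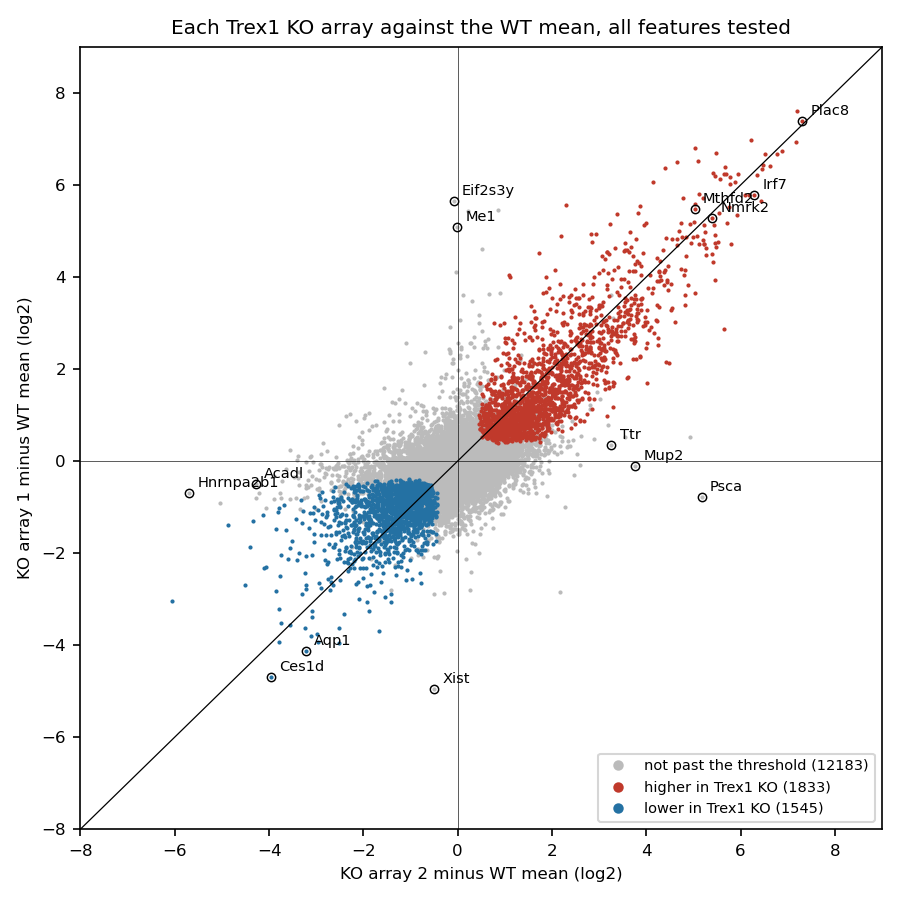
Each point is 1 of the 15561 features, placed by KO array 2 (horizontal axis) and KO array 1 (vertical axis), each as its log2 difference from the WT mean, with equality as the diagonal line. The 1833 rises (red) and 1545 falls (blue) lie along the diagonal, and named points off it are the sex-linked Xist and Eif2s3y and transcripts much higher on 1 KO array than on the other, such as Psca, Mup2, Ttr and Me1.

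At the top of the interferon cascade, 2 interferons were detected in KO hearts alone. Ifnb1, the beta interferon that IRF3 induces, read 5.61 and 6.75 on the KO arrays, against 4.42 and 4.41 on the WT arrays, and it was well above background on neither WT array (at least 2.26-fold higher in KO hearts, adjusted p = 0.00289). Ifng, the type II interferon of T cells and NK cells, read 6.99 and 6.44 in KO hearts, against 4.41 and 4.55 in WT hearts (at least 3.28-fold higher in KO hearts, adjusted p = 0.000187). On both genes the 2 KO arrays lay apart from the WT arrays, and KO 2 was the higher of the pair for Ifnb1 and the lower for Ifng. The alpha interferon Ifna1 read 4.95 on KO 1 and 5.67 on KO 2, against 5.27 and 5.22 on the WT arrays, with overlapping groups, and Ifne, the epithelial epsilon interferon, was detected on 0 of the 4 arrays. Il18, an inducer of interferon gamma, was higher in KO hearts by 2.30 ± 0.50 (adjusted p = 0.00941). A fold is written as "at least" where all arrays of 1 group were below background, and a list median is then also given with such genes set at that bound.

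Calls among the receptors and kinases that read these interferons were near the share of all features called (21.7%, with 11.8% higher and 9.93% lower). Of 8 measured, 1 was higher and 1 lower, with a median of 0.06 (2 higher and 2 lower without KO 2). Tyk2, a kinase of the type I receptor, was higher by 1.05 ± 0.19 (adjusted p = 0.00383), and Ifngr2, a chain of the interferon gamma receptor, was lower with a difference of -0.83 ± 0.26 (adjusted p = 0.0427). Ifngr2 did not pass without KO 1 (adjusted p = 0.152), and the most variable of the Tyk2 probes differed by -0.0008. Ifnar2, a chain of the type I receptor, read 6.77 and 6.80 on the KO arrays, against 6.31 and 6.39 on the WT arrays, and did not pass. The transcription factors below the receptors were another matter: 7 of 13 rose and 0 fell (median 1.81, or 1.54 at the bounds). Irf7, the factor that amplifies alpha interferon, read 11.28 and 11.78 in KO hearts, against 4.92 and 6.08 in WT hearts, a difference of 6.03 ± 0.49 (adjusted p = 4.36e-05), detected on 1 of 2 WT arrays. Irf9, a transcription factor that interferon activates, rose by 2.16 ± 0.25, Stat2 by 1.94 ± 0.26 and Irf1 by 1.90 ± 0.32. Irf3 itself read 9.54 on KO 1 and 10.37 on KO 2, against 9.59 and 9.64 on the WT arrays, and did not pass the test.

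Among the sensors of cytosolic DNA, 4 of 11 rose and 1 fell. Cgas read 8.24 and 8.24 on the KO arrays, against 5.89 and 6.14 on the WT arrays, a difference of 2.22 ± 0.29 (adjusted p = 0.000561). That value comes from the brighter of its 2 probes, and the dimmer read 5.46 and 6.06 on the KO arrays, against 5.74 and 5.95 on the WT arrays. Sting1 differed by 1.55 ± 0.29 (adjusted p = 0.00388), and Zbp1, a sensor of Z-form nucleic acid, by 1.74 ± 0.25. The extracellular nuclease Dnase1l3 was at least 7.59-fold higher in KO hearts, adjusted p = 0.000112, while Dnase2a, the lysosomal DNase, fell with a difference of -1.71 ± 0.32 (adjusted p = 0.00440). Tbk1 read 10.31 and 9.72 in KO hearts, against 9.66 and 9.55 in WT hearts, with overlapping groups. Of the RNA sensors 4 of 6 rose, led by Dhx58 (4.17), and Mavs, their mitochondrial adaptor, fell by 1.12 on the log2 scale. Of the Toll-like receptors and adaptors 11 of 16 rose and 0 fell (median 1.52, or 1.46 at the bounds, 12 higher and 0 lower without KO 2), among them Tlr7 and Tlr13, sensors of RNA in endosomes, Tlr2, a sensor of bacterial lipoprotein, and Unc93b1, which carries endosomal receptors to their compartment (2.28, 3.06, 3.21 and 2.73 in that order). The double-stranded DNA sensor Aim2 was at least 2.09-fold higher in KO hearts, adjusted p = 0.00842, and 6 of 7 members of its PYHIN family rose.

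Promoters of several induced antiviral genes hold the letters of an interferon-stimulated response element. The stretches below, upstream of the transcription start of 4 genes that rose, were read from the RefSeq promoter windows of mouse build GRCm38.p6 and are shown because they carry the letters GAAA, any 2 bases and GAAA again, in capitals (TTTC, any 2 bases and TTTC where the match lies on the other strand). Overlapping matches in Isg15 merge into 1 run. Each is given 5′ to 3′ on the gene's own strand.

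Isg15 (chr4:156200830-156200941, minus strand): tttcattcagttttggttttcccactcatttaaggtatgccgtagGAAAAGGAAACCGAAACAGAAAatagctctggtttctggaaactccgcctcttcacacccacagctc
Ifit3 (chr19:34583328-34583461, plus strand): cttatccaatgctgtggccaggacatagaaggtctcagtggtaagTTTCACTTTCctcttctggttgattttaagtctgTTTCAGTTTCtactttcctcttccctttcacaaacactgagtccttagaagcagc
Cxcl10 (chr5:92349048-92349139, minus strand): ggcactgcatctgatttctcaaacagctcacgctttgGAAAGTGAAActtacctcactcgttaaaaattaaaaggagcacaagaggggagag
Rsad2 (chr12:26456518-26456617, minus strand): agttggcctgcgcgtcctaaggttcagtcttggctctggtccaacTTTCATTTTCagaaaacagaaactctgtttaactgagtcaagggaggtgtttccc

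The window searched runs from 250 bases before to 50 bases after each start, and a match is a description of letters, not of binding. On both strands together the motif was found in 1079 of 27025 genes with a window (3.99%). Among genes tested here it was found in 111 of 1172 rises (9.47%), 21 of 995 falls (2.11%) and 244 of 7579 genes that did not pass (3.22%). Isg15, a ubiquitin-like modifier, read 13.78 on KO 1 and 12.36 on KO 2, against 6.89 and 7.64 on the WT arrays, a difference of 5.81 ± 0.49 (adjusted p = 5.79e-05). Ifit3, which binds foreign RNA, read 14.41 and 14.00 on the KO arrays, against 7.69 and 8.77 on the WT arrays, and differed by 5.98 ± 0.43. All of these lay far above the WT arrays on both KO arrays. Rsad2 (viperin) read 13.11 and 11.42 in KO hearts, against 8.77 and 9.75 in WT hearts, a difference of 3.01 ± 0.55 (adjusted p = 0.00355). Cxcl10, a chemokine for activated T cells, read 11.31 on KO 1 and 9.55 on KO 2, against 4.50 and 4.52 on the WT arrays, at least 42.9-fold higher in KO hearts, adjusted p = 0.000156. In all 4 genes KO 1 was the higher of the KO arrays.

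The antiviral effectors rose family by family. All 5 measured members of the ISG15 conjugation system rose, and so did all 7 of the IFIT, viperin and Ifi44 list (median 3.01) and all 6 interferon-inducible TRIM ligases. Of the oligoadenylate synthetase list 8 of 9 rose, 6 of 7 guanylate-binding proteins, 5 of 7 immunity-related GTPases, 5 of 6 interferon-inducible PARPs, 10 of 12 restriction factors and 2 of 4 Schlafen genes. None of the members of these lists fell. The share of all features called higher was 11.8%, as above. Usp18, which removes ISG15 and damps the type I receptor, read 13.45 and 13.16 on the KO arrays, against 6.70 and 7.71 on the WT arrays, a difference of 6.10 ± 0.36 (adjusted p = 1.79e-05). Oasl1, a relative of the RNA-sensing oligoadenylate synthetases, read 10.34 and 10.44 in KO hearts, against 4.88 and 5.56 in WT hearts, a difference of 5.17 ± 0.33 (adjusted p = 1.79e-05), detected on 1 of 2 WT arrays. Igtp, a GTPase of vacuoles that hold parasites, read 14.32 on KO 1 and 13.75 on KO 2, against 7.86 and 8.52 on the WT arrays, a difference of 5.85 ± 0.39 (adjusted p = 2.07e-05). The KO arrays stood close together at all 3 and far above the WT arrays. Gbp2, a guanylate-binding protein of the same defence, read 13.52 and 12.93 on the KO arrays, against 8.56 and 9.45 on the WT arrays, a difference of 4.22 ± 0.39 (adjusted p = 8.79e-05). Ch25h, which makes an antiviral oxysterol, differed by 5.96 ± 0.53 and Mx2 by 3.00 ± 0.34. The protein kinase Eif2ak2 (PKR) read 11.65 and 9.73 in KO hearts, against 9.60 and 8.78 in WT hearts, highest on KO 1, and did not pass the test. Feedback inhibitors were mixed, and of 12 measured 5 rose and 1 fell. Socs3, which blocks JAK signalling, rose by 2.57 ± 0.34, Ptpn6, a phosphatase of blood cells, by 3.71 ± 0.38, and Cish fell by 0.85 on the log2 scale. Cish did not pass without KO 1 (adjusted p = 0.132). Socs1 read 5.41 on KO 1 and 5.81 on KO 2, against 5.33 and 4.47 on the WT arrays, and did not pass.

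Most genes of antigen presentation on class I and class II molecules rose. Of the class I heavy and light chain genes 10 of 11 rose, with a median of 3.93, or 3.73 at the bounds. H2-K1, a classical heavy chain, read 13.22 and 12.81 on the KO arrays, against 8.82 and 9.34 on the WT arrays, a difference of 3.93 ± 0.38 (adjusted p = 0.000104). B2m, the light chain, read 15.55 and 15.53 in KO hearts, against 13.09 and 13.42 in WT hearts, a difference of 2.29 ± 0.22 (adjusted p = 0.000112). Nlrc5, the transactivator of class I genes, was at least 13.3-fold higher in KO hearts, adjusted p = 4.19e-05. In the immunoproteasome, whose subunits replace standing ones under interferon, 4 of 6 listed genes rose. Psmb9, a catalytic subunit, read 12.00 on KO 1 and 12.57 on KO 2, against 8.04 and 8.33 on the WT arrays, a difference of 4.10 ± 0.33 (adjusted p = 4.22e-05). Psmb8, another, read 13.43 and 11.34 on the KO arrays, against 9.21 and 9.36 on the WT arrays, and KO 1 was the higher of the KO arrays. Of the 11 constitutive subunits 0 rose and 0 fell, with differences between -0.33 and 0.52, as in Psmb5, which read 10.18 and 10.27 in KO hearts, against 10.50 and 10.36 in WT hearts. Tap1, a chain of the peptide pump, rose by 3.72 ± 0.35. The chaperone Calr read 9.37 on KO 1 and 6.99 on KO 2, against 9.40 and 9.64 on the WT arrays, low on KO 2 alone, and did not pass. All 12 class II genes rose (median 3.98; 11 higher and 0 lower without KO 2). H2-Aa, an antigen-binding chain, read 13.01 and 13.14 on the KO arrays, against 9.41 and 9.52 on the WT arrays, a difference of 3.61 ± 0.41 (adjusted p = 0.000229). Cd74, the invariant chain, read 14.72 and 14.25 in KO hearts, against 10.41 and 10.42 in WT hearts. Ciita, their master regulator, was at least 6.00-fold higher in KO hearts, adjusted p = 0.000116.

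Chemokine genes were among the largest rises. Of the monocyte-attracting chemokines 9 of 11 rose and 1 fell (median 3.86; 9 higher and 0 lower without KO 2), and 6 of 7 T cell-attracting chemokines rose and 1 fell (median 4.09). Ccl4 read 11.89 on KO 1 and 12.04 on KO 2, against 4.93 and 5.39 on the WT arrays, a difference of 6.81 ± 0.46 (adjusted p = 2.07e-05), detected on 1 of 2 WT arrays. Ccl5, a chemokine for T cells and monocytes, read 12.42 and 12.46 on the KO arrays, against 5.92 and 6.03 on the WT arrays. Cxcl9, induced by interferon gamma, read 13.87 and 13.69 in KO hearts, against 7.56 and 8.04 in WT hearts. Of the chemokines of resting tissue, Ccl21a and Cxcl12 fell, whereas Ccl19 rose. Of 7 neutrophil-attracting and homeostatic chemokines 0 rose and 1 fell, Cxcl12 (median 0.03). Ccl21a, a ligand of CCR7, read 7.68 on KO 1 and 7.28 on KO 2, against 9.94 and 9.62 on the WT arrays, a difference of -2.30 ± 0.25 (adjusted p = 0.000197). Cxcl12, the ligand of CXCR4, read 11.45 and 8.72 on the KO arrays, against 12.48 and 12.33 on the WT arrays, lowest on KO 2, a difference of -2.32 ± 0.66 (adjusted p = 0.0317). Without KO 2 it did not pass (adjusted p = 0.0707). Among receptors, Cxcr3, which binds Cxcl9 and Cxcl10, was at least 5.70-fold higher in KO hearts, adjusted p = 9.89e-05. Cx3cr1 rose by 2.74 ± 0.58, and Ackr4, a scavenger of Ccl21, fell with a difference of -2.04 ± 0.32 (adjusted p = 0.00168). In all 5 of 10 rose and 1 fell. Of the interleukin and tumour necrosis factor superfamily genes 13 of 21 rose and 0 fell. Tnf was at least 3.97-fold higher in KO hearts, adjusted p = 9.89e-05, Il1b rose by 2.40 ± 0.48, its antagonist Il1rn by 2.23 ± 0.26 and Tnfsf13b (BAFF, a survival factor of B cells) by 3.71 ± 0.35. Il6 read 5.48 and 5.33 in KO hearts, against 4.50 and 4.73 in WT hearts, and did not pass the test. Of the complement genes 8 of 14 rose. C4b, of the classical pathway, read 9.84 on KO 1 and 9.17 on KO 2, against 5.71 and 6.08 on the WT arrays, and Cfb, of the alternative pathway, was at least 32.0-fold higher in KO hearts, adjusted p = 2.64e-05. Icam1 and Vcam1, which hold leukocytes on vessel walls, rose by 2.37 ± 0.35 and 2.09 ± 0.57. Vcam1 did not pass without KO 1 (adjusted p = 0.114).

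Markers of recruited and of resident macrophages had opposite calls. Of the markers of recruited or inflammatory macrophages 11 of 13 rose and 0 fell (median 3.50), and 10 of 13 general macrophage markers rose. Of 13 markers of resident cardiac macrophages 0 rose and 5 fell (median -0.78; 0 higher and 4 lower without KO 2). Plac8 read 12.48 and 12.40 on the KO arrays, against 4.84 and 5.35 on the WT arrays, a difference of 7.35 ± 0.55 (adjusted p = 3.04e-05), detected on 1 of 2 WT arrays. Fcgr4, a receptor for antibody-coated targets, read 12.01 and 12.11 in KO hearts, against 4.79 and 5.89 in WT hearts. Lgals3, a galectin of activated macrophages, read 13.17 on KO 1 and 13.95 on KO 2, against 7.39 and 7.63 on the WT arrays. These 3 were near the bottom of the scale or modest in WT hearts and bright on both KO arrays. Against these, Lyve1, a hyaluronan receptor of resident macrophages and lymph vessels, read 6.88 and 6.96 on the KO arrays, against 8.71 and 8.72 on the WT arrays. Lyve1 did not pass without KO 1 (adjusted p = 0.0878) or without KO 2 (adjusted p = 0.113). F13a1, a subunit of clotting factor XIII, read 6.78 and 6.21 in KO hearts, against 10.04 and 9.96 in WT hearts, a difference of -3.51 ± 0.38 (adjusted p = 0.000187). Cd163, the haemoglobin scavenger receptor, read 4.42 on KO 1 and 4.56 on KO 2, against 7.79 and 8.92 on the WT arrays, at least 10.8-fold lower in KO hearts, adjusted p = 0.0102. At all 3 both KO arrays lay below both WT arrays. Timd4, another resident marker, read 5.08 and 4.85 on the KO arrays, against 6.08 and 5.42 on the WT arrays, and did not pass the test. All 4 measured subunits of the phagocyte NADPH oxidase rose, and 7 of 8 Fc receptors and adaptors rose (6 higher and 1 lower without KO 2), whereas Fcgrt, the recycling receptor for immunoglobulin G, read 10.45 and 11.06 in KO hearts, against 11.28 and 11.43 in WT hearts.

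Many lymphocyte transcripts were low or undetected on the WT arrays and higher on both KO arrays. Of the T cell markers 8 of 10 rose, and Cd3g, part of the T cell receptor complex, read 9.44 on KO 1 and 9.64 on KO 2, against 4.62 and 4.51 on the WT arrays (at least 23.2-fold higher in KO hearts, adjusted p = 3.48e-05). Cd3e was at least 13.0-fold higher in KO hearts, adjusted p = 2.91e-05. Nkg7, a granule protein of killer cells, read 9.90 and 10.40 on the KO arrays, against 5.22 and 5.12 on the WT arrays, and 8 of 9 cytotoxic and NK cell genes rose. The pore-forming Prf1 was the exception, with 8.01 and 8.66 in KO hearts, against 8.46 and 7.82 in WT hearts. Of the B and plasma cell genes 3 of 4 rose, with Cd79b, of the B cell receptor, at 6.28 on KO 1 and 7.20 on KO 2, against 5.09 and 5.28 on the WT arrays. Of the checkpoint genes 9 of 12 rose. Cd274 (PD-L1) read 11.69 and 10.61 on the KO arrays, against 7.27 and 7.94 on the WT arrays, a difference of 3.54 ± 0.46 (adjusted p = 0.000565). The T cell inhibitors Lag3 and Havcr2 were at least 7.16-fold and at least 7.82-fold higher, and Ctla4 rose by 1.52 ± 0.30. The neutrophil protein S100a8 read 6.87 and 7.53 in KO hearts, against 6.67 and 7.13 in WT hearts, with overlapping groups, and its partner S100a9 did not pass either. Of 8 measured mast cell markers 4 fell, the 3 proteases below among them, and 1 rose. Cpa3, a carboxypeptidase, read 5.04 on KO 1 and 4.42 on KO 2, against 6.73 and 6.32 on the WT arrays, a difference of -1.79 ± 0.40 (adjusted p = 0.0103), detected on 1 of 2 KO arrays. Cma1 differed by -1.39 ± 0.36 and Mcpt4 was at least 2.22-fold lower in KO hearts, adjusted p = 0.0168. None of these 3 passed without KO 2 (adjusted p = 0.0642, 0.0854 and 0.0585). Hdc, which makes histamine and is also used by myeloid cells, rose by 2.98 ± 0.34. Without KO 2 the mast cell list held 1 higher and 1 lower.

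**Figure D3:**
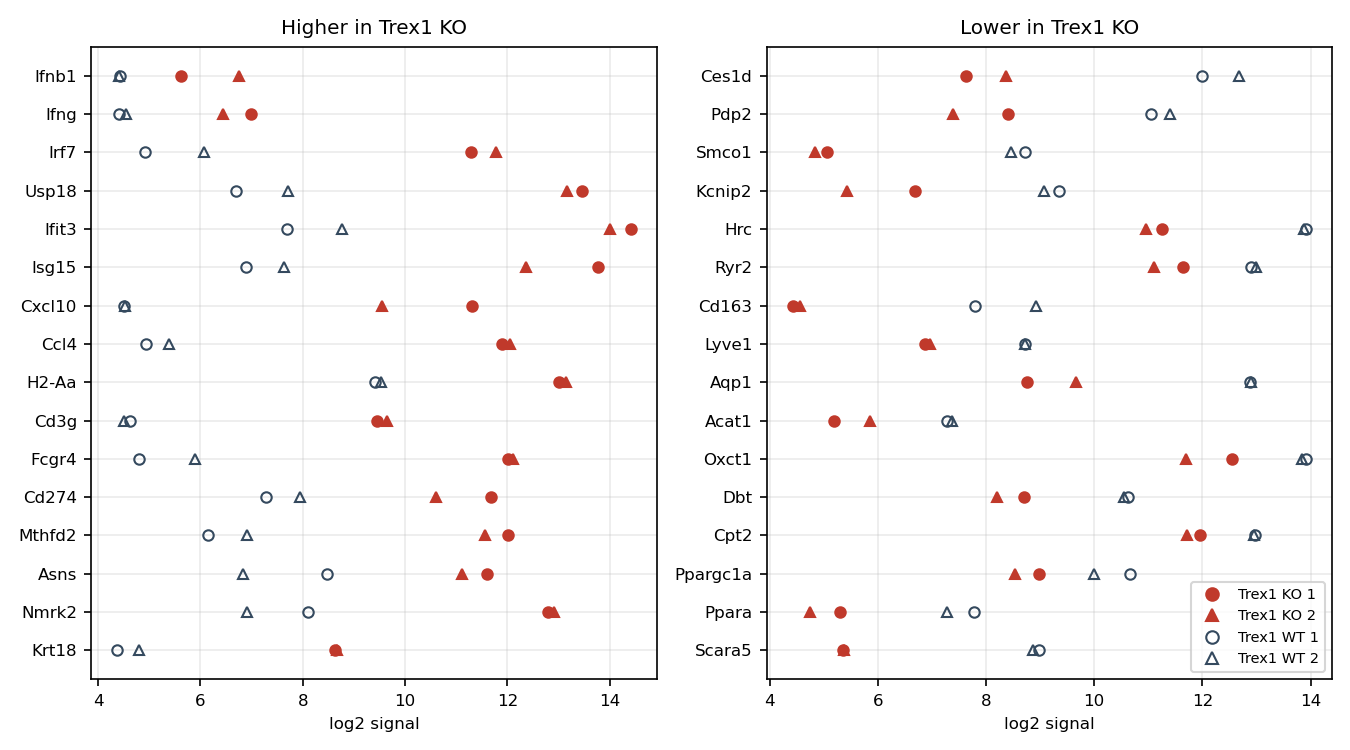
Log2 signal (horizontal axes) of 16 genes that rose (left panel) and 16 that fell (right panel) on each array, with Trex1 KO 1 and KO 2 as filled red circles and triangles and WT 1 and WT 2 as open dark blue circles and triangles. The KO and WT arrays do not overlap for any gene shown, and Ifnb1, Ifng, Cxcl10 and Cd3g lie at background on both WT arrays.

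Another group of genes that rose belonged to the integrated stress response, in which the factor ATF4 drives amino acid synthesis. Of the listed genes 8 of 12 rose and 0 fell (6 higher and 0 lower without KO 2). Mthfd2, a mitochondrial enzyme of one-carbon metabolism, read 12.00 and 11.55 on the KO arrays, against 6.15 and 6.90 on the WT arrays, a difference of 5.25 ± 0.52 (adjusted p = 0.000118). Asns (asparagine synthetase) read 11.60 and 11.11 in KO hearts, against 8.47 and 6.84 in WT hearts, a difference of 3.70 ± 0.75 (adjusted p = 0.00643). Psat1, of serine synthesis, read 9.47 on KO 1 and 8.94 on KO 2, against 6.22 and 6.03 on the WT arrays. On each of them the KO arrays lay above the WT arrays by more than the gap within either pair. Chac1, which degrades glutathione, differed by 2.19 ± 0.31. Fgf21, a hormone of starvation, read 9.54 and 6.86 on the KO arrays, against 4.54 and 4.78 on the WT arrays, far higher on KO 1 (at least 9.15-fold higher in KO hearts, adjusted p = 0.00381). Ddit3 (CHOP), also driven by ATF4, read 11.99 and 11.57 in KO hearts, against 8.24 and 7.82 in WT hearts, a difference of 3.75 ± 0.23 (adjusted p = 1.79e-05). Trib3, an inhibitor that CHOP and ATF4 induce, rose by 3.27 ± 0.36. The main chaperones of the endoplasmic reticulum were not among the rises. Hspa5 (BiP) read 7.19 on KO 1 and 6.49 on KO 2, against 7.28 and 7.66 on the WT arrays, and Hsp90b1 read 12.43 and 11.39 on the KO arrays, against 12.41 and 12.38 on the WT arrays, neither past the test. Herpud1, of protein disposal in that compartment, fell with a difference of -0.92 ± 0.30 (adjusted p = 0.0499). Herpud1 did not pass without KO 1 (adjusted p = 0.0652) or KO 2 (adjusted p = 0.151). Atf4 itself read 11.58 and 11.23 in KO hearts, against 10.73 and 10.63 in WT hearts, and did not pass. Of 15 cytosolic heat shock genes 0 rose and 1 fell (0 higher and 0 lower without KO 2). Upstream of 3 of the stress genes the promoter windows hold TGATGNAA (TTNCATCA on the other strand), the letters of an amino acid response element, again in capitals on the gene's own strand.

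Asns (chr6:7693210-7693277, minus strand): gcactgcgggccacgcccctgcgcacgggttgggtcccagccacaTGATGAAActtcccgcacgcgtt
Chac1 (chr2:119351004-119351101, plus strand): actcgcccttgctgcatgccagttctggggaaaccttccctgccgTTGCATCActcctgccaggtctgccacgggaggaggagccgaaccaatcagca
Fgf21 (chr7:45615577-45615674, minus strand): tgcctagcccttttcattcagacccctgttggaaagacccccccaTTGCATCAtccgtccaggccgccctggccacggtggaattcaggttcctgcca

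This shorter motif was in 1219 of 27025 genes with a window (4.51%), in 290 of 9746 genes tested (2.98%), in 53 of 1172 rises (4.52%), in 32 of 995 falls (3.22%) and in 205 of the 7579 tested genes that did not pass (2.7%).

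Genes of dividing cells rose together: all 11 measured mitosis genes were higher (median 1.75, or 1.68 at the bounds; 10 higher and 0 lower without KO 2), and of 16 S phase genes 9 rose and 2 fell (4 higher and 2 lower without KO 2). Cdk1, the kinase that starts mitosis, read 7.42 on KO 1 and 7.19 on KO 2, against 4.83 and 5.07 on the WT arrays, a difference of 2.35 ± 0.37 (adjusted p = 0.00152), detected on 1 of 2 WT arrays. Top2a, which untangles chromosomes, was at least 2.49-fold higher in KO hearts, adjusted p = 0.0270. Top2a did not pass without KO 1 (adjusted p = 0.110). Inhibitors of the cycle moved in both directions. Cdkn1a (p21) rose by 2.13 ± 0.44, Cdkn2b (p15) by 2.86 ± 0.44, and Cdkn1c (p57) read 6.57 and 7.70 on the KO arrays, against 10.24 and 10.18 on the WT arrays, a difference of -3.07 ± 0.38 (adjusted p = 0.000426). Of the genes of inflammatory cell death 8 of 11 rose and 0 fell, among them Casp1, Mlkl, the executor of necroptosis, and Gsdmd, the pore of pyroptosis, by 3.46 ± 0.31, 2.78 ± 0.27 and 2.06 ± 0.35 in that order. Over all features 11.8% were called higher and 9.93% lower, and the counts of the intrinsic apoptosis list lay near those shares. Of the intrinsic apoptosis and p53 genes 2 of 14 rose and 2 fell (3 higher and 1 lower without KO 2).

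Several stress markers of heart muscle rose and a number of genes of the adult working muscle fell. Nppb (B-type natriuretic peptide) read 15.14 and 15.45 in KO hearts, against 13.44 and 12.34 in WT hearts, a difference of 2.41 ± 0.41 (adjusted p = 0.00258). Nppa, the atrial peptide, read 15.52 on KO 1 and 15.57 on KO 2, against 14.08 and 14.08 on the WT arrays. Acta1, the skeletal actin of the fetal heart, read 15.30 and 15.14 on the KO arrays, against 12.85 and 12.36 on the WT arrays. All 3 were bright in WT hearts already and higher on both KO arrays. Of 7 measured skeletal muscle markers 2 rose, Acta1 and Myl1, and 1 fell, Ckm. Their mean log2 signal was 8.96 and 9.69 on the KO arrays, against 8.38 and 8.56 on the WT arrays, and its part in these rises was not tested. Myl1 did not pass without KO 2 (adjusted p = 0.0735), and the counts were then 1 higher and 1 lower. Nmrk2, a muscle kinase that makes NAD from nicotinamide riboside, read 12.80 and 12.91 in KO hearts, against 8.10 and 6.92 in WT hearts, a difference of 5.34 ± 0.43 (adjusted p = 4.36e-05). Krt18, a keratin, was at least 12.5-fold higher in KO hearts, adjusted p = 1.79e-05, and Timp1, an inhibitor of matrix proteases, rose by 4.96 ± 0.50. Myh6, the adult myosin heavy chain, read 13.72 on KO 1 and 13.27 on KO 2, against 14.74 and 14.64 on the WT arrays, and fell with a difference of -1.20 ± 0.24 (adjusted p = 0.00629). Myh7, the fetal form, read 7.77 and 4.74 on the KO arrays, against 7.05 and 6.74 on the WT arrays, and was detected on 1 of 2 KO arrays. Over the 14 natriuretic and fetal genes 7 rose and 2 fell. Among 19 ventricular sarcomere genes 0 rose and 4 fell (median -0.20), and Ttn (titin) fell by 1.46 on the log2 scale. Myl2, Actc1 and Tnnc1 did not pass.

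Of the ion channel and gap junction genes 10 of 18 fell and 0 rose (median -1.02). Kcnip2 and Kcnd2 encode subunits of the transient outward potassium channel, Kcnd2 the pore and Kcnip2 a partner of it. Kcnip2 read 6.69 and 5.44 in KO hearts, against 9.34 and 9.06 in WT hearts, a difference of -3.14 ± 0.41 (adjusted p = 0.000599). Kcnd2 read 8.34 on KO 1 and 7.18 on KO 2, against 10.43 and 10.37 on the WT arrays, a difference of -2.64 ± 0.40 (adjusted p = 0.00129). KO 2 was the lower of the KO arrays at both. Scn4b, a sodium channel subunit, differed by -1.86 ± 0.57 and Kcnj2, of the inward rectifier, by -1.77 ± 0.39. Neither passed without KO 2 (adjusted p = 0.121 and 0.0624), nor Scn4b without KO 1 (adjusted p = 0.0840). Gja1, the main ventricular connexin, read 14.05 and 13.26 on the KO arrays, against 14.42 and 14.01 on the WT arrays, and did not pass. Of 15 calcium handling genes 4 fell and 0 rose. Hrc, a calcium-binding protein of the sarcoplasmic reticulum, read 11.25 and 10.95 in KO hearts, against 13.92 and 13.88 in WT hearts, a difference of -2.80 ± 0.21 (adjusted p = 3.12e-05). Ryr2, the calcium release channel, read 11.65 on KO 1 and 11.11 on KO 2, against 12.90 and 12.99 on the WT arrays, a difference of -1.56 ± 0.27 (adjusted p = 0.00276). Atp2a2, the calcium pump SERCA2, read 15.57 and 14.32 on the KO arrays, against 15.62 and 15.59 on the WT arrays, with KO 2 the lower of the KO arrays, and did not pass the test. Of the adrenergic and cAMP genes 4 of 9 fell (0 higher and 2 lower without KO 2), and Pde3a, a phosphodiesterase, fell by 1.68 on the log2 scale. Without KO 2, Pde3a, Esrrg and Myocd did not pass (adjusted p = 0.122, 0.0589 and 0.114). Of 17 cardiac transcription factors 4 fell (Esrrg, Gata6, Myocd and Esrra) and 0 rose, and without KO 2 the counts were 0 higher and 2 lower. Nkx2-5 read 9.33 and 9.21 in KO hearts, against 9.60 and 9.31 in WT hearts, and did not pass.

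Many genes of energy metabolism fell. Of those of fatty acid uptake and oxidation 17 of 27 were lower (median -1.39), 13 of 16 of the tricarboxylic acid cycle (median -1.13), 11 of 16 of branched-chain amino acid catabolism (median -1.41), 15 of 33 subunits of complex I (median -0.75) and 15 of 38 of complexes II to V. The share of all features called lower was 9.93%, as above. Fitted on the 4 arrays alone, these lists held 9, 8, 7, 2 and 3 falls in that order. Without KO 2 they held 17, 13, 11, 24 and 19. Hadh, an enzyme of beta oxidation, read 6.68 on KO 1 and 5.31 on KO 2, against 8.83 and 8.53 on the WT arrays, a difference of -2.68 ± 0.42 (adjusted p = 0.00166). Cpt2, which moves fatty acids into mitochondria, read 11.96 and 11.71 on the KO arrays, against 12.97 and 12.96 on the WT arrays, and both KO arrays lay below both WT arrays. Acadl read 12.14 and 8.36 in KO hearts, against 12.70 and 12.57 in WT hearts, far below the others on KO 2 alone, and did not pass. Angptl4, an inhibitor of lipoprotein lipase, rose by 2.46 ± 0.77. Angptl4 did not pass without KO 1 (adjusted p = 0.192). Cs (citrate synthase) differed by -1.41 ± 0.20 and Fh1 (fumarase) by -1.42 ± 0.20, each below the WT arrays on both KO arrays. Ppm1k, the phosphatase that activates branched-chain breakdown, read 9.42 on KO 1 and 7.76 on KO 2, against 11.23 and 11.40 on the WT arrays, a difference of -2.73 ± 0.47 (adjusted p = 0.00259). Dbt, a subunit of that enzyme complex, read 8.69 and 8.21 on the KO arrays, against 10.63 and 10.55 on the WT arrays, a difference of -2.14 ± 0.24 (adjusted p = 0.000223). Auh was the single rise of that list (2.43). Of 3 genes of ketone use 2 fell, Oxct1 and Acat1. Oxct1, which activates ketone bodies, read 12.55 and 11.70 in KO hearts, against 13.92 and 13.85 in WT hearts, a difference of -1.76 ± 0.27 (adjusted p = 0.00140).

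Some regulators of this programme fell as well. Ppara, the fatty acid receptor that drives oxidation, read 5.29 on KO 1 and 4.75 on KO 2, against 7.77 and 7.27 on the WT arrays, a difference of -2.50 ± 0.34 (adjusted p = 0.000711), detected on 1 of 2 KO arrays. Ppargc1a (PGC-1 alpha), a coactivator of mitochondrial genes, read 8.98 and 8.53 on the KO arrays, against 10.67 and 10.00 on the WT arrays, a difference of -1.58 ± 0.35 (adjusted p = 0.00954). Without KO 2 it did not pass (adjusted p = 0.0554). Ppargc1b and Perm1, of the same pathway, differed by -1.85 ± 0.41 and -1.37 ± 0.20. Tfam, of mitochondrial DNA upkeep, read 9.14 and 8.72 in KO hearts, against 9.61 and 9.62 in WT hearts, and did not pass. In all 4 of 15 lipid regulators fell and 0 rose. Glucose genes were split, with 3 of 24 higher and 8 lower. Slc2a4, the insulin-regulated transporter GLUT4, read 8.73 on KO 1 and 8.72 on KO 2, against 11.26 and 10.67 on the WT arrays, a difference of -2.24 ± 0.25 (adjusted p = 0.000229). Slc2a1 (GLUT1) read 10.24 and 9.95 on the KO arrays, against 8.35 and 8.53 on the WT arrays, a difference of 1.65 ± 0.25 (adjusted p = 0.00120). The insulin-regulated transporter thus fell and the basal one rose on both KO arrays. Dlat and Pdhb, of pyruvate dehydrogenase, differed by -1.98 ± 0.25 and -1.92 ± 0.47.

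Of 28 mitochondrial ribosomal proteins 4 fell and 0 rose (0 higher and 7 lower without KO 2). Of 19 cytosolic ribosomal proteins 5 rose, and without KO 2 the counts were 0 higher and 0 lower. Of the itaconate, arginine and kynurenine genes 8 of 11 rose and 1 fell. Acod1, which makes itaconate in macrophages, was at least 16.0-fold higher in KO hearts, adjusted p = 2.91e-05. Antioxidant genes were mixed. Gpx3 and Gpx1, glutathione peroxidases, rose by 2.37 ± 0.65 and 1.41 ± 0.28, and the mitochondrial Prdx3 and Sod2 differed by -1.48 ± 0.26 and -0.84 ± 0.17. Gpx3 did not pass without KO 1 (adjusted p = 0.0521) or KO 2 (adjusted p = 0.0923). In iron handling Slc11a1, a metal transporter of phagosomes, and Hmox1, which degrades heme, rose by 2.74 ± 0.22 and 1.40 ± 0.25. Slc40a1 (ferroportin, the iron exporter) read 8.02 and 8.07 in KO hearts, against 10.53 and 10.27 in WT hearts, a difference of -2.35 ± 0.31 (adjusted p = 0.000564). Scara5, a ferritin receptor, read 5.36 on KO 1 and 5.37 on KO 2, against 8.98 and 8.87 on the WT arrays, a difference of -3.56 ± 0.25 (adjusted p = 2.32e-05). Of 14 circadian clock genes 0 rose and 2 fell. The falls of this list and of the mitochondrial ribosomal proteins lay near the 9.93% of all features called lower.

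Part of the stromal genes fell. Of those of resting fibroblasts 9 of 14 fell and 0 rose (median -1.26; 0 higher and 5 lower without KO 2). Gsn (gelsolin) read 7.48 and 4.46 on the KO arrays, against 10.67 and 10.38 on the WT arrays, a difference of -4.56 ± 1.24 (adjusted p = 0.0255), detected on 1 of 2 KO arrays, and Pdgfra, a receptor of fibroblasts, differed by -1.20 ± 0.25. Gsn did not pass without KO 2 (adjusted p = 0.162). Of the collagens 1 of 17 rose and 0 fell (median 0.14; 2 higher and 0 lower without KO 2). Col1a1 read 8.68 and 8.20 in KO hearts, against 7.90 and 7.50 in WT hearts, and did not pass. Lox, which crosslinks collagen, Tnc (tenascin C) and Ccn2 rose by 2.55 ± 0.40, 2.96 ± 0.39 and 2.07 ± 0.58, within 5 of 15 fibrosis mediators. Ccn2 did not pass without KO 1 (adjusted p = 0.0974) or KO 2 (adjusted p = 0.0504). Timp4, the inhibitor of matrix proteases found in heart, read 5.58 on KO 1 and 6.28 on KO 2, against 9.21 and 9.56 on the WT arrays, a difference of -3.45 ± 0.52 (adjusted p = 0.00129). Among 24 endothelial genes 6 fell and 1 rose (1 higher and 4 lower without KO 2). Aqp1, a water channel, read 8.76 and 9.67 on the KO arrays, against 12.88 and 12.90 on the WT arrays, a difference of -3.68 ± 0.42 (adjusted p = 0.000267). Flt1, a receptor of vascular growth factor, read 10.84 and 9.25 in KO hearts, against 11.82 and 11.70 in WT hearts, a difference of -1.71 ± 0.50 (adjusted p = 0.0356). Without KO 2 it did not pass (adjusted p = 0.209). The adhesion molecule Pecam1 and the clotting protein Vwf did not pass. Ackr1, the chemokine carrier of venules, was at least 2.38-fold higher in KO hearts, adjusted p = 0.000852. Of the pericyte and smooth muscle genes 5 of 13 fell. Myh11, smooth muscle myosin, fell by 2.31 on the log2 scale and Rgs5, a pericyte marker, fell by 2.15 on the log2 scale. Myh11 did not pass without KO 2 (adjusted p = 0.126).

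**Figure D4:**
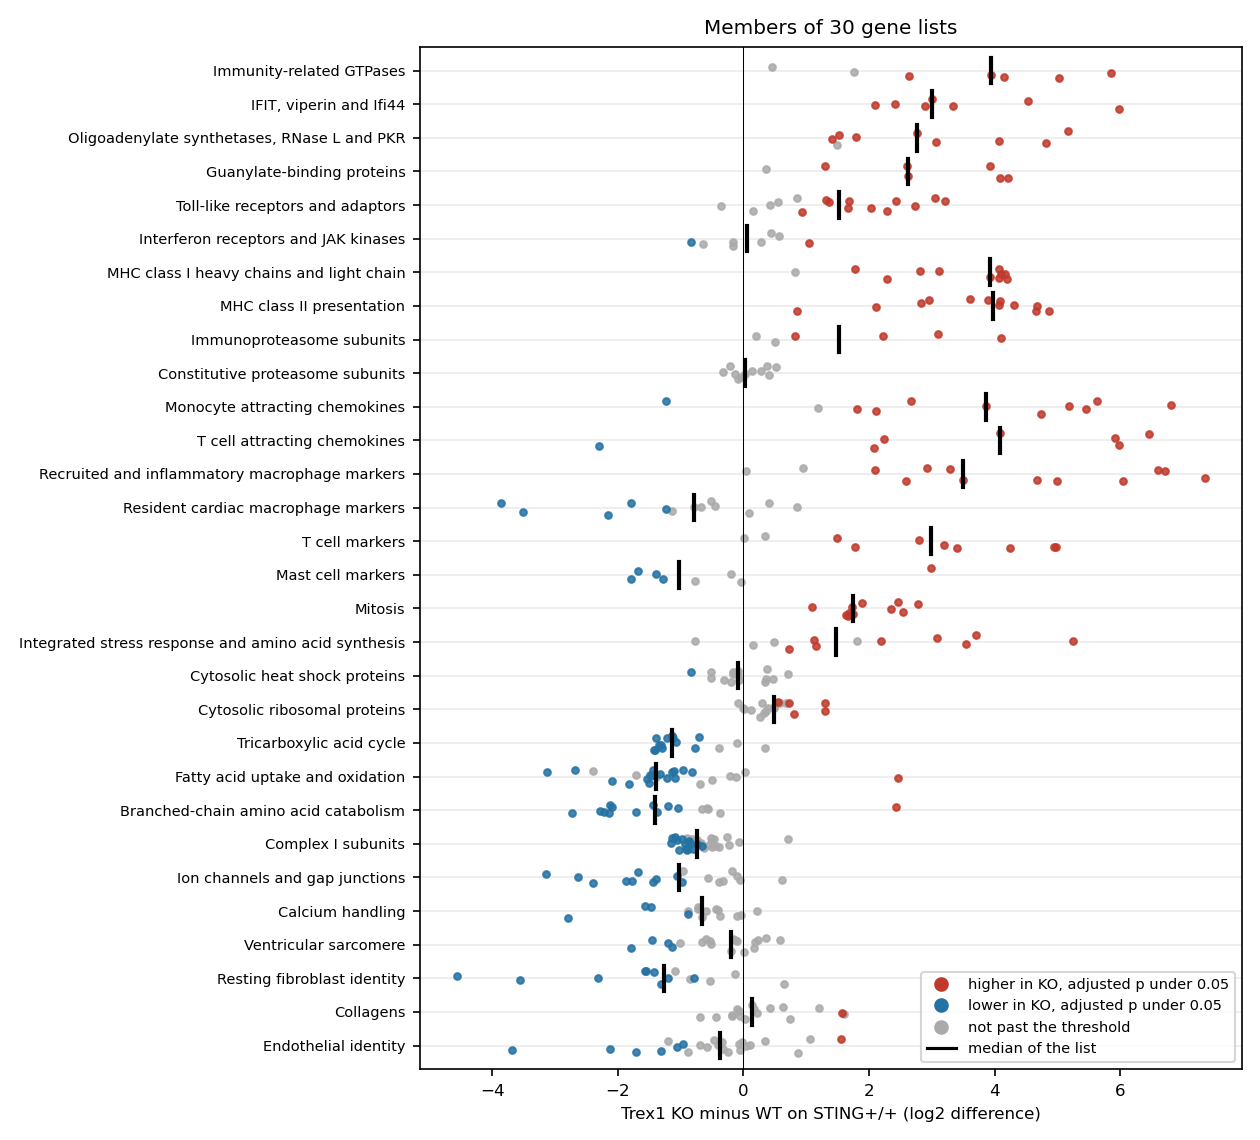
Each row is 1 of 30 gene lists and each point a measured member, placed by its Trex1 KO minus WT log2 difference on STING+/+ (horizontal axis); red points rose, blue points fell at an adjusted p under 0.05, grey points did not pass, and black bars are list medians. The class II list lies wholly above 0 with a median of 3.98, and the tricarboxylic acid cycle list has a median of -1.13.

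Outside the lists, the largest rises held further genes of interferon and of leukocytes. Apol9a, an apolipoprotein L relative, read 10.81 on KO 1 and 11.02 on KO 2, against 4.29 and 4.52 on the WT arrays, at least 60.2-fold higher in KO hearts, adjusted p = 1.13e-05. Ubd, a ubiquitin-like protein induced by interferon gamma, was at least 53.4-fold higher in KO hearts, adjusted p = 4.42e-05, and Phf11a rose by 5.97 ± 0.41. Fpr2, a formyl peptide receptor of phagocytes, Cd52 and Cd69, an early marker of lymphocyte activation, Bcl2a1d, a survival factor, and Sprr1a, induced in stressed heart muscle, were also among the 15 largest. Sprr1a read 9.46 and 9.57 on the KO arrays, against 4.52 and 4.65 on the WT arrays, at least 22.8-fold higher in KO hearts, adjusted p = 9.13e-06. Cd52, a surface protein of lymphocytes, read 12.23 and 13.29 in KO hearts, against 7.10 and 7.91 in WT hearts. The largest falls began with Ces1d, a carboxylesterase, at 7.62 on KO 1 and 8.36 on KO 2, against 11.99 and 12.67 on the WT arrays, a difference of -4.33 ± 0.30 (adjusted p = 2.14e-05). Pdp2, the phosphatase that switches on pyruvate dehydrogenase, read 8.41 and 7.38 on the KO arrays, against 11.05 and 11.39 on the WT arrays, a difference of -3.33 ± 0.38 (adjusted p = 0.000241). These 2 fell by far more than the spread within either pair. Ky, needed for muscle upkeep, read 5.73 and 6.52 in KO hearts, against 9.48 and 9.53 in WT hearts, a difference of -3.38 ± 0.29 (adjusted p = 6.31e-05). Retnla (resistin-like alpha) of alternatively activated macrophages read 4.32 on KO 1 and 4.62 on KO 2, against 8.10 and 7.33 on the WT arrays, at least 6.92-fold lower in KO hearts, adjusted p = 0.00530. Rbfox1, a splicing factor of muscle and brain, read 8.26 and 7.85 on the KO arrays, against 11.34 and 10.95 on the WT arrays, a difference of -3.09 ± 0.22 (adjusted p = 2.32e-05). Smco1, Isoc2a, Gpcpd1, Adhfe1, Ephb1, P2ry1 and Pxmp2 were also among the 15 largest falls, and Gpcpd1 did not pass without KO 2 (adjusted p = 0.0817).

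Some genes separated the 2 KO arrays. Higher on KO 1 by the widest gaps were Eif2s3y, Me1 (malic enzyme), Hnrnpa2b1, Rbbp7, Acadl and Acaa2. Me1 read 9.80 and 4.71 in KO hearts, against 4.74 and 4.69 in WT hearts, high on KO 1 alone. Higher on KO 2 were Psca, Xist, Mup2, Erdr1, Apoe and Hamp, the hepcidin gene. Psca, a surface antigen of epithelia, read 5.17 on KO 1 and 11.13 on KO 2, against 6.52 and 5.38 on the WT arrays, high on KO 2 alone. None of these except Acaa2 passed the test of KO against WT hearts, and Acaa2, the last enzyme of beta oxidation, read 12.12 and 8.63 on the KO arrays, against 13.56 and 13.46 on the WT arrays.

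The effect of Trex1 loss was also measured in hearts with 1 STING allele and with none. The 3 effects come from separate pairs of groups and were compared by the difference of effects in the same fit. Markers of tissue content differed between these pairs. The median KO minus WT difference of the atrial list was 0.13 on STING+/+, 2.07 on STING+/- and -1.94 on STING-/-. That of the adipocyte list was -0.20, 0.12 and -1.52 in the same order. The part of tissue content in the differences of effects was not tested. Between STING+/+ and STING+/-, 217 features (1.39%) had a higher effect on STING+/+ and 82 (0.527%) a lower one. Between STING+/+ and STING-/-, 996 (6.40%) had a higher effect on STING+/+ and 540 (3.47%) a lower one. These counts depend on single arrays. For STING+/+ against STING+/-, leaving out 1 array gave between 21 features (without WT 1) and 3027 features (without KO 1). For STING+/+ against STING-/-, it gave between 651 features (without KO array 1 of STING-/-) and 3392 features (without KO 1). On STING+/- 177 features were higher and 20 lower in KO than in WT hearts.

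On STING+/- part of the antiviral response was present. Immunity-related GTPases had a median difference of 3.94 on STING+/+, 2.28 on STING+/- and 0.03 on STING-/-, and 1 of 7 differed between the first pair. Usp18 differed by 6.10 ± 0.36 on STING+/+, by 4.76 ± 0.36 on STING+/- and by -0.10 ± 0.36 on STING-/-. Class II genes had medians of 3.98, 1.25 and 0.17 in the same order, and 6 of 12 had a larger effect on STING+/+ than on STING+/-. Of the T cell markers 5 of 10 did, with medians of 2.99, 0.64 and 0.11. Ifng, which was not well above background in WT hearts with STING+/+, read 4.73 and 4.57 in KO hearts, against 4.42 and 4.93 in WT hearts on STING+/-, where no array was well above background. The test of the difference of its effects gave an adjusted p of 0.0194 (limma), and no size is given. The tricarboxylic acid cycle list had medians of -1.13, -0.35 and 0.09 in that order, and 0 of its genes differed between STING+/+ and STING+/- and 10 between STING+/+ and STING-/-. Kcnip2 differed by -3.14 ± 0.41 on STING+/+, by -0.09 ± 0.41 on STING+/- and by 0.08 ± 0.41 on STING-/-. Nmrk2 differed by 5.34 ± 0.43, 0.64 ± 0.43 and 0.12 ± 0.43 in that order, and Ddit3 by 3.75 ± 0.23, 2.45 ± 0.23 and 0.06 ± 0.23.

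**Figure D5:**
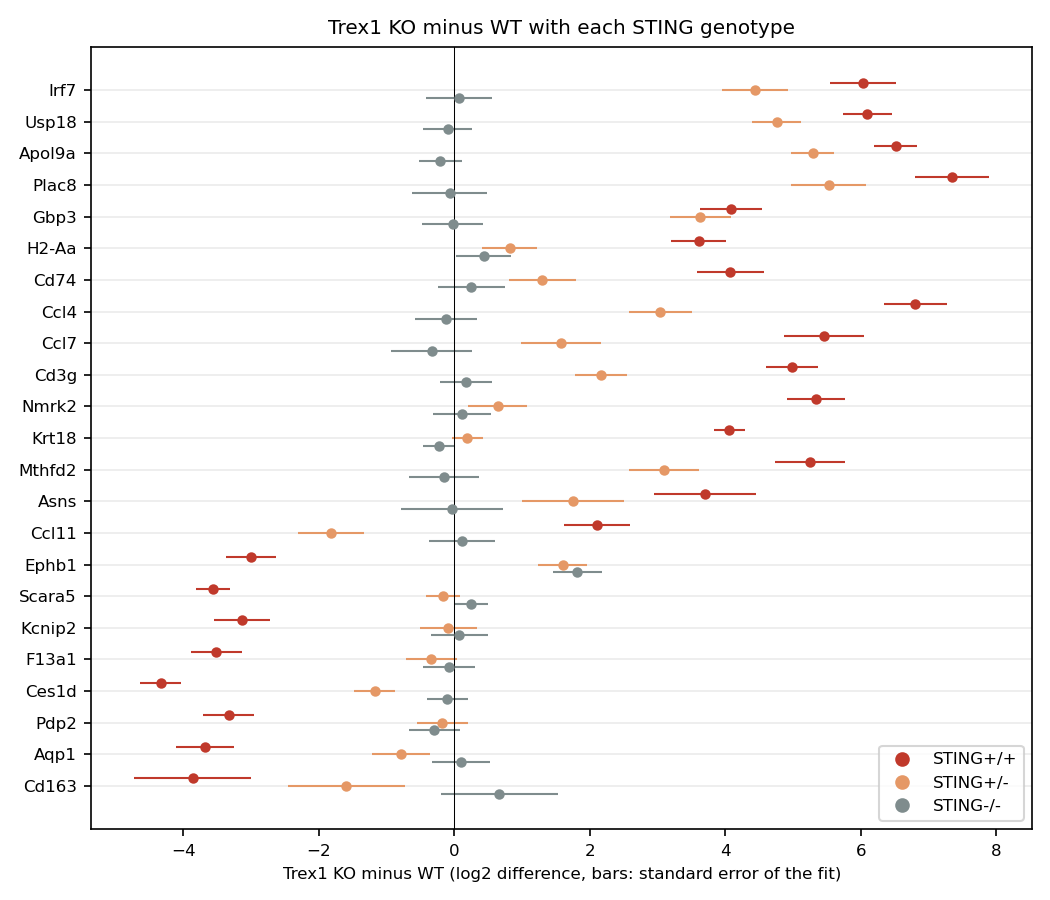
Trex1 KO minus WT log2 difference (horizontal axis, with the standard error of the fit as bars) of 23 genes on STING+/+ (red), STING+/- (orange) and STING-/- (grey), 2 KO and 2 WT arrays each. Usp18 lies at 4.76 ± 0.36 on STING+/-, Kcnip2 at -0.09 ± 0.41 and Pdp2 at -0.17 ± 0.38. Genes not well above background are drawn at their measured signal.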

How the data were processed

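Total heart RNA was extracted with RNeasy and made into biotinylated cRNA with a MessageAmp kit, per the labels' protocols. The deposited bead signals are linear intensity values that were not normalized, per the file headers. The deposited detection p-value columns rise with the signal, so they were read as 1 minus p (rank correlation with the signal 0.979 to 0.988), and 38.3% to 44.7% of probes were detected per array at p under 0.05. The authors' own processed table holds log2 values centred on each probe. They match quantile-normalized log2 signals within 0.0145 over 9056 bright probes, but the authors' steps, the scanner software and any background step are not stated.

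The signals were corrected and normalized with limma 3.58.1 in R 4.3.3 (neqc, offset 16, negative controls inferred from the detection p). Of 45281 probes, 22810 were detected on at least 2 of the 12 arrays. The brightest probe stood for each gene, leaving 15561 features. The platform annotation gave 1 symbol to 34885 probes, several to 18 and none to 10378, and 34807 were matched to current RefSeq names. All 6 genotype groups of 2 arrays entered 1 model (lmFit, eBayes, 6 residual degrees of freedom), with Benjamini-Hochberg adjustment over all features and ± as the standard error of the fit. The model was also run on simulated data drawn from its own fitted spread, equal across groups. That run cannot show how the model handles the departures of KO 2.

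The members and the 92 gene lists (1290 genes) were chosen with earlier results of these data known. Genes were named from the lists (all members of short lists, otherwise those with the largest differences, the brightest that did not pass and the widest gaps between KO arrays), and outside them from the 15 largest rises and falls without overlap, the widest gaps between KO 1 and KO 2 and the widest differences between STING genotypes. A selection of these is printed. A bound is the mean of the detected group against the higher of the dim probe and the lowest detected signal of each array. The alternatives tried were the background correction, the authors' values, the filter, the probe for a gene, the variance model, array weights, the samples in the fit, the loss of each array and the sex of the arrays.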

Additional observations from a re-analysis of the deposited data

Results flagged for a closer look

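The effect of Trex1 loss on STING+/+ was tested against its effect on STING+/- and on STING-/-, as a difference of effects (log2, effect on STING+/+ minus the other) in the same limma fit, and the differences below had an adjusted p under 0.05. Against STING+/-, 217 features had a higher and 82 a lower effect on STING+/+, and against STING-/- 996 had a higher and 540 a lower one. Each named gene is among the 10 widest differences of its direction. The differences use measured signals, and they are no bounds where a group was not well above background. On STING+/+ this held for Krt18, Sprr1a, Ccl3, Serpina3f, Acod1, Apol9a and Me1 in WT hearts, and for Cd163 and Myot in KO hearts. It also held in both groups of STING+/- for Krt18, in WT hearts with STING+/- for Sprr1a, Ccl3, Serpina3f and Acod1, in both groups of STING-/- for Apol9a, and in KO hearts with STING-/- for Ccl4 and Me1.

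Lrrc2, a leucine-rich repeat gene, was not well above background on any STING+/+ array, where it read 4.60 and 4.54 in KO hearts, against 4.70 and 4.57 in WT hearts, so no difference of effects is given for it. On STING+/- it read 4.44 and 6.65 in KO hearts, against 11.68 and 11.71 in WT hearts. Against STING+/-, of genes of stressed muscle, Nmrk2 differed by 4.70, Krt18 by 3.87 and Sprr1a by 3.73. Of chemokines, Ccl11 differed by 3.93, Ccl7 by 3.87, Ccl4 by 3.77 and Ccl3 by 3.43. The Ccl11 effect was 2.11 on STING+/+, where its call ended without KO 1, and -1.82 on STING+/-. Serpina3f, a serpin of the mouse acute-phase cluster, differed by 3.43 and Acod1 by 3.41. The widest negative difference was at Ephb1, an ephrin receptor, with -4.60. The Ephb1 effect was -3.00 on STING+/+ and 1.60 on STING+/-. Its WT hearts read 9.26 and 8.72 on STING+/+, against 7.07 and 7.00 on STING+/-. Ephb1, Lrrc2 and, below, Me1 lie on chromosome 9, which also holds Trex1, and the mice were of mixed strain. The part of strain alleles near Trex1 in the differences at these genes was not tested. Scara5 differed by -3.39, Smco1 by -3.19, F13a1 by -3.17 and Ces1d by -3.16. Pdp2 differed by -3.15, the channel partner Kcnip2 by -3.05, the cycle inhibitor Cdkn1c by -2.95, the water channel Aqp1 by -2.89 and Fign by -2.77.

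Against STING-/-, the myeloid genes Plac8, Lgals3, Fcgr4 and Cd72 differed by 7.42, 6.91, 6.66 and 6.67 in that order. The chemokines Ccl4 and Ccl5 differed by 6.93 and 6.70, Apol9a by 6.72, Ch25h by 6.43 and the complement gene C2 by 6.34. Me1 differed by 6.63. On STING-/- it read 4.82 and 4.68 in KO hearts, against 8.18 and 9.50 in WT hearts, and on STING+/+ it was high on KO 1 alone, and its effect there did not pass the test. On the negative side Ephb1 differed by -4.82, Cd163 by -4.53, Ces1d by -4.23, Timp4 by -4.09 and Myot, a protein of the muscle Z disc, by -4.08. The Ephb1 effect was 1.82 on STING-/-, where WT hearts read 6.23 and 6.15. Smco1 differed by -4.02, Gpcpd1 by -3.96, Scara5 by -3.81, Aqp1 by -3.78 and Kcnv2, a potassium channel subunit, by -3.54.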

How the results depend on the processing

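The 3378 features called for Trex1 loss on STING+/+ moved by less than 1.5 times under another normalization, the authors' processed values, either filter on dim probes, another choice of probe, another variance model and the sex of the arrays as a covariate (2902 to 3487). The last of these was chosen after seeing the data. With array weights 1998 were called and in a fit of the 4 arrays alone 1418. Leaving out 1 array gave 1659 (without WT 1) to 5168 (without KO 1), with 1837 without WT 2 and 2707 without KO 2. For STING+/+ minus STING+/-, 299 features were called, against 194 with no filter, 110 with the stricter filter, 105 with array weights, 23 in a fit of the groups compared alone and 463 with the sex covariate, and 21 to 3027 with 1 array left out. For STING+/+ minus STING-/-, the 1536 features stayed within 1.5 times under the other alternatives, but 1 array left out gave 651 to 3392. In fits that leave 1 array in a group, that array was assumed to vary like the other groups. No paired analysis was possible because the labels number the arrays of different genotypes with different numbers. Of 205 named genes past the threshold, 50 lost their call without 1 of the 4 arrays, and 1, Tyk2, changed sign under any alternative (-0.0008 with its most variable probe). The other sign changes were at genes that did not pass. Their differences with 1 of the 4 arrays left out ran over -2.80 to 0.27 for Apoe, -0.086 to 5.65 for Eif2s3y, -0.99 to 2.28 for Erdr1, -1.01 to 0.038 for Hsp90b1, -0.29 to 0.43 for Ifna1, -0.074 to 0.75 for Irf3, -0.13 to 0.0013 for Lrrc2, -0.0074 to 5.08 for Me1. For the rest they ran over -0.11 to 3.77 for Mup2, -2.15 to 0.88 for Myh7, -1.06 to 0.26 for Pecam1, -0.13 to 0.52 for Prf1, -0.79 to 5.17 for Psca, -0.033 to 0.62 for S100a8, -0.42 to 0.80 for S100a9 and -0.40 to 0.48 for Vwf. With its most variable probe Ifna1 became -0.12, and with the sex covariate Eif2s3y became -0.073 and Lrrc2 0.062. The causes were not tested. Groups of 2 arrays limit the precision, and genes near background have compressed differences.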

Other observations

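Several further gene groups were measured in the KO against the WT hearts with STING+/+. Of 14 NF-kappaB subunits and targets 8 rose and 0 fell (median 1.50). Nfkbie and Tnfaip3 are inhibitors that the pathway induces against itself. Nfkbie was at least 4.80-fold higher in KO hearts, adjusted p = 0.00170, and Tnfaip3 rose by 2.21 ± 0.36. Of 12 leukocyte adhesion molecules 8 rose, among them Selplg, the selectin ligand of leukocytes, which read 9.51 on KO 1 and 10.02 on KO 2, against 6.11 and 6.33 on the WT arrays, and Itgb2, a leukocyte integrin chain, which was at least 2.74-fold higher in KO hearts, adjusted p = 0.00386. Of 18 cytokine receptors 8 rose and 1 fell (7 higher and 2 lower without KO 2). Il10ra, a cytokine receptor chain, read 8.22 and 8.74 on the KO arrays, against 5.19 and 4.92 on the WT arrays, and Lifr fell by 0.88 on the log2 scale. Of 9 dendritic cell markers 6 rose, with Irf8, a factor of their development, higher by 3.03 ± 0.34. Of 5 measured neutrophil markers 2 rose, Lcn2 by 2.12 ± 0.42 and Csf3r by 1.46 ± 0.28. Of 13 cathepsin and lysosome genes 6 rose and 0 fell (median 1.03). Ctsz, a cathepsin, read 9.62 and 10.79 in KO hearts, against 6.99 and 7.11 in WT hearts. Of 12 acute-phase genes 4 rose and 1 fell, and Serpina3n, a secreted protease inhibitor, read 12.17 on KO 1 and 10.61 on KO 2, against 6.14 and 7.43 on the WT arrays, a difference of 4.60 ± 0.69 (adjusted p = 0.00120).

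Of the 7 genes of Aicardi-Goutières syndrome 3 rose and 0 fell. Samhd1, which degrades nucleotides, rose by 2.64 ± 0.25, Ifih1, the RNA sensor MDA5, by 2.10 ± 0.38 and Adar, the RNA editing enzyme, by 1.51 ± 0.25. Other stress programmes held both rises and falls. Over all features 11.8% were called higher and 9.93% lower, and several of the counts that follow lie near those shares. Of 12 hypoxia genes 3 rose and 1 fell (3 higher and 0 lower without KO 2), of 16 immediate early genes 3 rose and 1 fell (1 higher and 0 lower without KO 2), and of 14 glucocorticoid-inducible genes 4 rose and 2 fell (3 higher and 1 lower without KO 2). Vegfa, the vascular growth factor, read 11.06 and 10.35 on the KO arrays, against 12.13 and 11.49 on the WT arrays, a difference of -1.11 ± 0.32 (adjusted p = 0.0308). Klf9, a target of the glucocorticoid receptor, read 11.14 and 10.17 in KO hearts, against 12.74 and 12.64 in WT hearts, a difference of -2.03 ± 0.35 (adjusted p = 0.00286). Of 13 matrix metalloproteinases and their inhibitors 3 rose and 1 fell. Mmp12, the macrophage elastase, was at least 3.08-fold higher, and Mmp14, a membrane protease, rose by 1.59 ± 0.41. Among genes of NAD use Sirt1 and Sirt5, deacylases that consume NAD, differed by -0.99 ± 0.27 and -1.17 ± 0.28, and over the list 2 of 14 rose and 2 fell (1 higher and 3 lower without KO 2). Without KO 2, Vegfa (adjusted p = 0.165) and Sirt1 (adjusted p = 0.129) did not pass, nor did Mmp14 without KO 1 (adjusted p = 0.0793).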
